A study of Macaca mulatta with 2 samples.

Results

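The insulin-like growth factor (IGF) system was examined in cultured Sertoli cells of rhesus macaques (Macaca mulatta), which line the seminiferous tubule and nourish germ cells. Its members here were 10 genes, namely the ligands IGF1 and IGF2, the receptors IGF1R and IGF2R, and the binding proteins IGFBP2, IGFBP3, IGFBP4, IGFBP5, IGFBP6 and IGFBP7. They were taken by name, as every gene probe that the array annotation gives to one of these symbols, which yielded 20 probes among the 21509 gene names of the array. A probe is called detected where the scanner software flagged its spots as well above background. Of the 10 genes, 9 were measured, that is, detected in both cultures by at least 1 probe, as were 14243 genes in all.

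One array carried RNA from a pubertal culture and the other RNA from an infant culture, each a primary Sertoli cell culture from testis. The infant cells came from males younger than 3 months. The pubertal cells came from juvenile males, aged 18 to 22 months, made pubertal by hormone infusion. They received gonadotropin-releasing hormone through a catheter every 3 h, in pulses of 2 min at a rate of 0.15 µg/min, over 4 to 5 weeks. Both cultures had been exposed for 12 h to follicle-stimulating hormone at 5 ng/ml together with testosterone at 100 nM, so neither array shows cells without hormone. With 1 array per group there was no replicate and no test, the number of arrays limits the precision, and the effects of age, animal, culture and infused hormone cannot be told apart. How many animals each culture pooled is unknown here. The probes were designed on human sequence.

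IGF1 and IGF2 are small secreted peptides that promote growth and survival. Both act through the tyrosine kinase receptor encoded by IGF1R, whereas IGF2R, which is also the cation-independent mannose 6-phosphate receptor, takes IGF2 up for breakdown in lysosomes. In body fluids most IGF is held by binding proteins, which lengthen its life and set how much reaches the receptor, and which proteases can cleave to set it free. In the testis, IGF and insulin receptor signalling is known to support Sertoli cell proliferation and the response to follicle-stimulating hormone.

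Probe sequences are shown for the members that have a probe known to lie in the human coding sequence, because such a probe states which part of the message a value reports. Each is 60 bases long and is written 5′ to 3′, with capitals for the 19 whole codons of the reading frame of the protein, in which no stop codon occurs.
IGF1 probe 2 (GT_44k_24_P304419): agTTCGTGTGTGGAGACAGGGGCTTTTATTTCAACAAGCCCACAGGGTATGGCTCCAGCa
IGF2 probe 2 (GT_44k_23_P421379): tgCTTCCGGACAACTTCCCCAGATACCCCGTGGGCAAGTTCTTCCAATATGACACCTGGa
IGFBP3 probe 2 (GT_44k_24_P320699): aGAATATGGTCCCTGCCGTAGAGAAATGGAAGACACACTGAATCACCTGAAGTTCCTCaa
IGFBP5 probe 2 (GT_44k_23_P376497): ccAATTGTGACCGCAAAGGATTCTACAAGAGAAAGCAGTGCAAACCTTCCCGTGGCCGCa
IGFBP6 (GT_44k_23_P139912): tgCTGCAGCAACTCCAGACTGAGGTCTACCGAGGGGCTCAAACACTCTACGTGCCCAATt
None of the 20 member probes shared a run of 20 bases, on either strand, with an array probe of another gene. Their GC content was at most 55.0%. The array files give no genome position for these probes, and positions were not analysed here.

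Signals below are the processed spot intensity in scanner units. Levels are its log2 after the array's own 75th percentile was set to 0, differences are pubertal minus infant on that log2 scale, and a 2-fold difference has a size of 1. The error beside a difference is the one the scanner software gives for the spots, and it does not cover the spread between cultures. Differences are formed between the arrays for 1 probe, and signals of different probes are not read as relative amounts of RNA. The summed signals of marker lists add different probes, so a bright probe can carry a sum. The 75th percentile lay at 406.7 intensity units on the pubertal against 382.4 on the infant array, and 54.8% and 54.7% of gene spots were detected. Over the 14243 genes the median difference was -0.06. Replicate spots of 1 probe had a median SD of 0.09 on the pubertal against 0.08 on the infant array, and different probes of 1 gene differed with a median SD of 0.21 in their difference. No member probe lay in a disturbed area of the slide, and none was saturated.

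The labelled cell type was checked against its markers. All 16 Sertoli cell markers of the list were detected in both cultures, among them WT1, GATA4 and SOX9. Of these, 4 were at least 2-fold higher in the pubertal culture and 0 lower, with a list median of 0.43 and a summed signal of 498 times the 75th percentile against 465. Without VIM, the brightest of the list on the infant array, the sum was 233 against 163. The 4 were the iron carrier TF (3.32), AMH (3.28) and the transcription factors DMRT1 (2.11) and SOX8 (1.05), while the inhibin subunit INHA was at -0.52. AMH, a hormone that immature Sertoli cells are known to make and that declines at puberty, was thus higher on the array labelled pubertal, against the direction known for age. Markers of other testis cells were also present. Of the germ cell markers, 8 of 16 were measured on both arrays, of which 5 were at least 2-fold higher in the pubertal culture and 1 lower. DDX4, SYCP3 and KIT were detected there alone, STRA8, GFRA1, PRM1, TNP1 and ACRV1 in neither, and the list median was 3.43. The summed signal of the germ cell list was 25.6 against 39.0, but UCHL1 (-1.52), the 1 lower marker, carried most of the infant sum, and without it the sum was 13.6 against 4.68. Of the peritubular myoid markers, 8 of 8 were measured and 5 were at least 2-fold higher, with a summed signal of 187 against 99.3. Macrophage markers were at least 2-fold higher for 4 of 6 measured (summed signal 4.79 against 1.11, and 1.64 against 0.737 without CD163). Fibroblast markers were so for 2 of 7, with 1 lower and a list median of -0.53 (31.0 against 36.6, and 25.2 against 20.5 without DCN). Of 8 measured Leydig cell markers 3 were at least 2-fold lower (summed signal 50.5 against 154, and 45.2 against 53.9 without STAR), with STAR at -4.24, CYP17A1 at -4.21 and CYP11A1 at -1.37. The other 5, HSD3B2, HSD17B3, INSL3, NR5A1 and DLK1, lay between 0.17 and 0.56, the list median was 0.21, and the receptor gene LHCGR was detected in neither culture. Endothelial markers were measured for 4 of 8, 1 of them higher. CDH5, KDR and TIE1 were detected in neither culture, and the summed signal was 1.35 against 0.813 (0.753 against 0.335 without ENG). The part of these cells in the differences below was not tested, and on arrays of whole cultures fewer cells of a type and less RNA per cell cannot be told apart.

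Among the IGF genes, IGFBP4, IGFBP3 and IGFBP7 had lower signals in the pubertal culture, at 29.3%, 41.2% and 48.2% of the infant level. The ligand IGF2, both receptors and the binding proteins IGFBP2, IGFBP5 and IGFBP6 differed by less than 2-fold, from -0.30 to 0.42. The ligand IGF1 was detected in neither culture. Thus 3 of 9 measured members, and 6.32% of all genes measured, passed 2-fold on the lower side. On the higher side 0 of 9 members and 7.32% of all genes passed it. The median over the 9 members was -0.03.

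**Figure D1:**
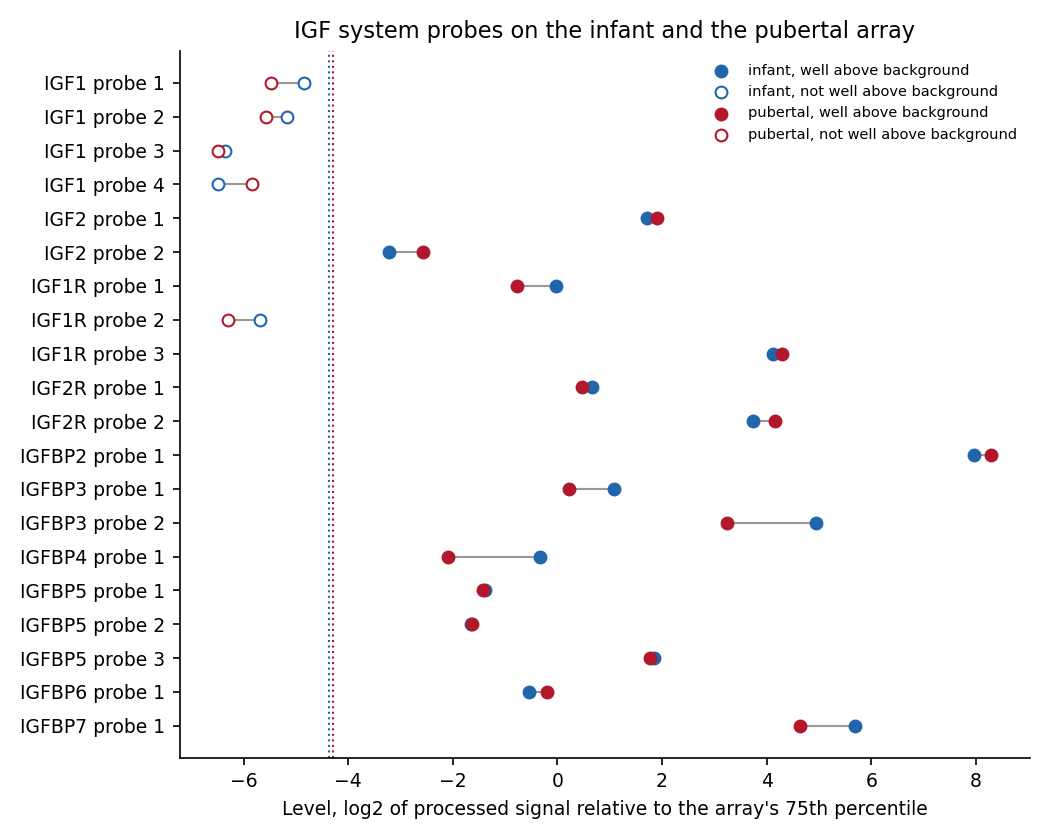
Level of each of the 20 IGF system probes on the infant (blue) and the pubertal (red) array, as log2 of the processed signal relative to the array's 75th percentile; open circles are spots not detected, and dotted lines mark each array's lowest detected level (-4.29 pubertal, -4.37 infant). A grey line joins the 2 arrays for 1 probe, and it is longest for IGFBP4 (-2.10 pubertal, -0.33 infant) and for probe 2 of IGFBP3 (3.24 and 4.94).

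Among the ligands, IGF2 was measured with 2 probes. Probe 1 gave a signal of 1530 on the pubertal against 1250 on the infant array, and probe 2, in the coding sequence printed above, gave 68.4 and 41.2. Both probes were therefore brighter on the pubertal array, by 0.21 and 0.64. The gene's difference was 0.42 with an error of 0.17, or 1.34-fold higher, and 79.2% of all genes measured had a lower difference. It was 0.20 with normexp background correction.

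IGF1, the ligand that growth hormone induces in liver and many other tissues, had 4 probes, and none was detected in either culture. The coding-sequence probe gave a raw spot brightness of 64.4 on the pubertal against 64.6 on the infant array. Negative control spots had a median raw brightness of 50.6 and 50.1 there, with a 95th percentile of 57.6 and 57.1. Probe 1 was at 66.1 and 64.9, probe 3 at 50.2 and 59.0, and probe 4 at 64.7 and 50.5. Probes 1 and 2 thus exceeded every negative control spot on both arrays, while probe 3 on the pubertal and probe 4 on the infant array lay near the median of those controls. The levels of all 4 probes, from -6.48 to -4.85, lay below the lowest detected level of both arrays, so no difference is given. With a weaker detection flag IGF1 also entered the measured members, whose median was then -0.16 in place of -0.03.

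IGF1R, the signalling receptor, was measured with 2 probes that pointed in opposite directions. Probe 3 was the brighter, at 7930 on the pubertal against 6670 on the infant array, a difference of 0.16. Probe 1 gave 237 and 376, a difference of -0.76, which is 1.69-fold lower. Their mean was -0.30 with an error of 0.15, and the SD between them, 0.65, was larger than that of 88.9% of genes with several probes. A further IGF1R probe, annotated to another transcript record, was detected in neither culture (5.15 and 7.48).

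IGF2R, the clearance receptor, also had probes of opposite sign. Probe 2 gave 7280 on the pubertal against 5070 on the infant array, and probe 1 gave 564 and 604. Their differences were 0.43 and -0.19, with a mean of 0.12 and an error of 0.14. For both receptors, then, the brighter probe was higher and the dimmer probe lower on the pubertal array. Taking the brightest probe alone turned the sign for IGF1R (0.16) and not for IGF2R (0.43).

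**Figure D2:**
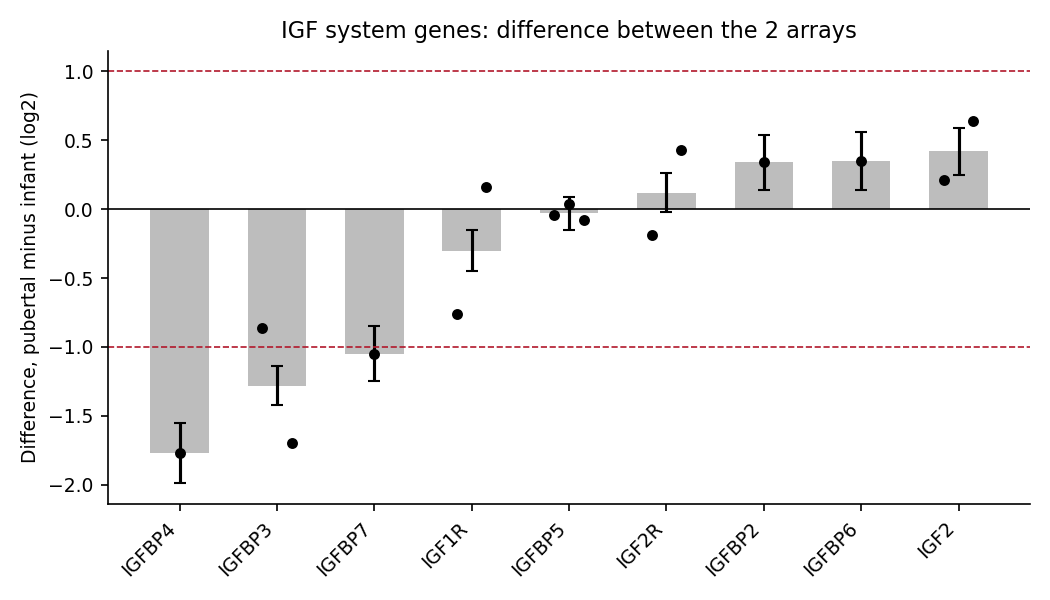
Difference between the arrays (log2, pubertal minus infant) for the 9 IGF system genes measured on both. Bars are the gene's value, error bars the scanner software's error, points the detected probes, and dashed lines mark 2-fold; IGFBP4 (-1.77), IGFBP3 (-1.28) and IGFBP7 (-1.05) are the bars past the lower line.

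The binding proteins fell into a lower group of 3 and a group of 3 that differed by less than 2-fold. Of the latter, IGFBP5 lay near the median of all genes, with 52.1% of genes lower. IGFBP2 and IGFBP6 lay above it, with 75.5% and 76.4% lower. IGFBP4, which is known to restrain IGF action and is the classic substrate of the protease PAPPA, had the largest difference. Its single probe gave a signal of 94.8 on the pubertal against 304 on the infant array. The difference was -1.77 with an error of 0.22, or 3.41-fold lower, and 183 of the 14243 genes, 1.28%, had a lower one. The raw brightness of the spot was 153 and 375 against a local background of 35.0 and 31.0, and the difference of raw brightness less local background was -1.63. With normexp background correction it was -1.35, so the size of this difference, though not its side of 2-fold, moved with the background correction.

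IGFBP3, the main carrier of IGF in blood and also known to act on cells without IGF, was measured with 2 probes. The coding-sequence probe gave 3840 on the pubertal against 11700 on the infant array, a difference of -1.70. Probe 1 gave 475 and 810, a difference of -0.86, which is short of 2-fold. Both probes were dimmer on the pubertal array, by unequal amounts. The gene's difference was -1.28 with an error of 0.14, or 2.43-fold lower, and 3.36% of genes had a lower one. The SD between the probes, 0.59, exceeded that of 86.5% of genes with several probes.

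IGFBP7, a secreted protein of low affinity for IGF that also binds insulin, had 1 probe. Its signal was 10100 on the pubertal against 19700 on the infant array. The difference was -1.05 with an error of 0.20, or 2.07-fold lower, and 5.62% of genes had a lower one. Its distance from the 2-fold line was thus smaller than its error.

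IGFBP2, a binding protein prominent in fetal life, had a very bright probe, at 128000 on the pubertal against 95000 on the infant array, without saturation. The difference was 0.34 with an error of 0.20. IGFBP6, which prefers IGF2 over IGF1, gave 358 and 263, a difference of 0.35 with an error of 0.21. Both were thus slightly brighter on the pubertal array, by 1.26-fold and 1.28-fold. IGFBP2 was at 0.68 with quantile and 0.62 with loess normalization.

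IGFBP5, which binds to extracellular matrix, had 3 probes with nearly the same signal on both arrays. Probe 1 gave 152 on the pubertal against 147 on the infant array, probe 2 in the coding sequence gave 132 and 121, and probe 3 gave 1390 and 1380. The 3 differences ran from -0.08 to 0.04, and their SD of 0.06 lay below the median of 0.21 over genes with several probes. The gene's difference was -0.03 with an error of 0.12, the smallest in size among the 9 members.

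Differences between members do not depend on how an array as a whole is scaled. The nearest members of the lower and the other group of binding proteins, IGFBP7 and IGFBP5, were 1.02 apart with an error of 0.24. IGFBP4 lay 2.13 below IGFBP6, with an error of 0.30, and 0.72 below IGFBP7, also with an error of 0.30. IGFBP4 lay 0.49 below IGFBP3, with an error of 0.26. That gap was smaller with normexp correction (-1.35 against -1.29) and with the brightest probe (-1.77 against -1.70), so the order of these 2 genes is not settled. IGFBP3 and IGFBP7 were 0.23 apart with an error of 0.25, so their order is not settled by the spot error. The same holds for IGF2, IGFBP2 and IGFBP6, which lay within 0.09 of each other with errors of at least 0.26.

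The position of the spots was compared with their surroundings. For the 15 detected member probes, the median difference of the neighbouring spots within 5 spot pitches lay between -0.37 and 0.11. It was 0.10 around IGFBP4, -0.21 around the coding-sequence probe of IGFBP3 and -0.28 around IGFBP7. The IGFBP7 spot therefore lay among spots that were themselves somewhat lower on the pubertal array, and the part of position in its value was not tested. Around IGFBP2 and IGFBP6, which were higher, the neighbours had medians of -0.37 and -0.33.

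**Figure D3:**
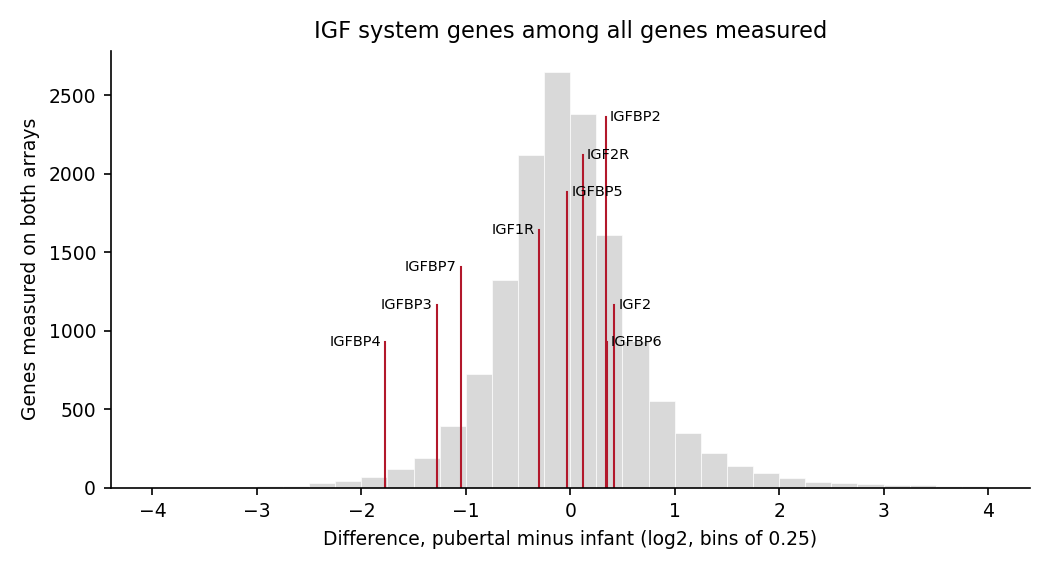
Distribution of the difference (log2, pubertal minus infant, bins of 0.25) over the genes measured on both arrays, shown from -4 to 4, with a red line at each of the 9 IGF system genes; line heights serve only to separate the names. IGFBP4, IGFBP3 and IGFBP7 lie in the lower tail, with 1.28%, 3.36% and 5.62% of genes below them. The other 6 have from 32.1% (IGF1R) to 79.2% (IGF2) of genes below them.

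Some of these genes are neighbours in the genome. All 10 members are listed in the RefSeq gene table of the macaque assembly T2T-MMU8v2.0, where IGFBP2 stands next to IGFBP5, IGFBP3 next to IGFBP1, and IGF2 next to the insulin gene INS. IGFBP2 (0.34) and IGFBP5 (-0.03) differed by 0.36 with an error of 0.24. IGFBP3 was at -1.28, whereas its neighbour IGFBP1, also a binding protein, was at 0.96 with a dim probe (levels of -3.24 pubertal and -4.19 infant). The pair thus had opposite signs and lay 2.24 apart with an error of 0.39. With normexp background correction IGFBP1 was at 0.27 and IGFBP3 at -1.29, which is a smaller gap. INS, also dim, was at -0.36.

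Beyond the members, 76 genes of the pathway were listed by role, of which 74 were on the array and 64 were measured on both. Of these 64, 2 passed 2-fold on the higher side, beside 7.32% of all genes, and 4 on the lower side, beside 6.32%. Their median was -0.20, beside -0.06 over all genes. The largest differences were those of DEPTOR, GRB10, WISP2, FOXO4, NRAS and CYR61.

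Genes that handle binding proteins outside the cell all differed by less than 2-fold where both arrays measured them. PAPPA, which cleaves IGFBP4, was at -0.68, against -1.77 for its substrate, and ADAM12, a protease of IGFBP3 and IGFBP5, was at -0.84, the largest of this group. HTRA1, a secreted serine protease, was at 0.58. STC1, the glycoprotein stanniocalcin, was detected only in the infant culture, at 2.22-fold the lowest detected level of the pubertal array. The insulin receptor INSR was at -0.84. The acid-labile subunit IGFALS, which holds IGFBP3 complexes in blood, was at 0.34 on a dim probe, with a larger error of 0.37. One probe of the binding-protein-like gene IGFBPL1 was detected only in the infant culture, with the same level of -4.15 on both arrays.

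The CCN family, matrix proteins related in sequence to the binding proteins, held genes on both sides. CYR61, with 3 probes from -1.48 to -0.89, was at -1.11, or 2.15-fold lower, and CTGF at -0.99. WISP2 gave a signal of 631 in the pubertal against 220 in the infant culture, the opposite sign, at 1.43 or 2.70-fold higher.

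Of the 3 proteins that bind IGF2 messenger RNA, IGF2BP1 was detected only in the pubertal culture. One probe gave 169 there against 18.7 in the infant culture, which after scaling is 8.48-fold brighter than that undetected spot. Its other probe was detected in neither. IGF2BP3 was at 0.74 and IGF2BP2 at 0.08. In the growth hormone axis, the receptor GHR had levels of -0.90 pubertal and -0.89 infant and the kinase JAK2, the largest of 5, was at -0.71.

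Inside the cell, GRB10, an adaptor that binds the insulin and IGF1 receptors and damps their signal, had both probes brighter on the pubertal array. One gave 502 on the pubertal against 78.4 on the infant array and the other 288 and 134. The gene's difference was 1.80, or 3.49-fold higher, although its probes, at 2.59 and 1.02, disagreed on the size. The receptor substrate IRS1 was at -0.47. IRS2 was at 0.77 over 3 probes that ranged from 0.06 to 1.90. The docking protein GAB1 was detected only in the pubertal culture, by 2 probes. The brighter was at 2.57-fold the lowest detected level of the infant array.

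DEPTOR, an inhibitory subunit of the mTOR complexes that the array lists as DEPDC6, had the largest difference of the pathway list. One probe gave 49.7 on the pubertal against 485 on the infant array and another 66.7 and 445. Both were dimmer in the pubertal culture, a further probe was detected in neither, and the gene's difference was -3.10, or 8.58-fold lower. The other 8 measured mTOR genes lay between -0.59 and 0.63, with the kinase MTOR at 0.09. In the PI3K and AKT arm 1 of 16 genes passed 2-fold, the transcription factor FOXO4 at -1.41 on 1 probe (62.6 pubertal, 156 infant). Another FOXO4 probe, detected only in the infant culture, gave 28.1 and 38.5, which is short of 2-fold, and a further one was detected in neither. Its relatives FOXO1 and FOXO3 were at 0.73 and -0.78 and the kinase AKT1 at 0.13. In the RAS and ERK arm NRAS, a small GTPase, was at -1.33 on a dim probe (28.0 pubertal, 65.9 infant), the 1 of 8 measured genes past 2-fold. A negative difference was found for 7 of the 8, and for 54.2% of all genes measured.

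**Figure D4:**
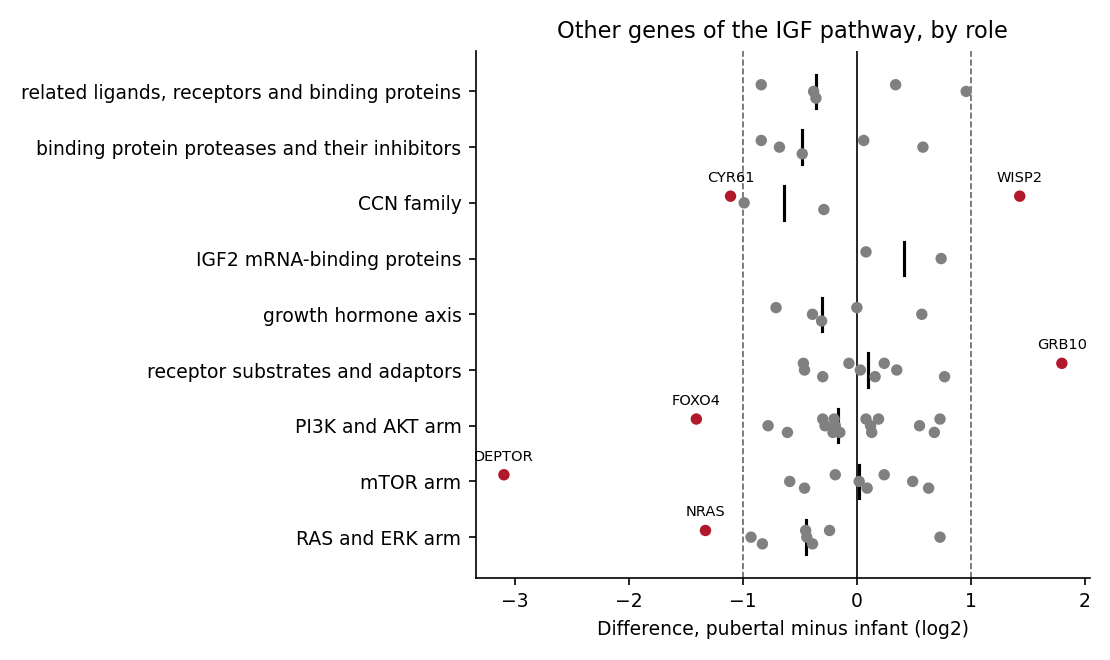
Difference between the arrays (log2, pubertal minus infant) for the 64 measured genes of the wider IGF pathway, by role; each point is a gene, black bars are the group medians, and dashed lines mark 2-fold. The 6 genes past 2-fold are red and named, with DEPTOR (-3.10) and GRB10 (1.80) farthest out.

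The scaling of the arrays sets where 0 lies. Scaling on spike-in control probes moved the median of all genes by 0.98. On the higher side 4 of 9 members then passed 2-fold, beside 6372 of 14243 genes. On the lower side 0 members passed it, beside 128 genes. IGFBP4, IGFBP3 and IGFBP7 were at -0.79, -0.30 and -0.07 on that scale, IGFBP5 at 0.96 and IGF2 at 1.41. The word lower is therefore relative to the other genes of the array. Under all 13 settings, the one used here included, IGFBP3, IGFBP4 and IGFBP7 lay below IGFBP2, IGFBP5 and IGFBP6, with a gap between the groups of 0.83 to 1.06. The groups were drawn from these same values, and scaling a whole array cannot change their order. Filter alternatives left the nearest values of the groups at -1.05 and -0.03. These could change with quantile (-0.89 and -0.06), loess (-0.87 and 0.01) and normexp (-1.08 and -0.02). They could also change with the brightest probe (-1.05 and -0.08) and the median of probes (-1.05 and -0.04). In the pathway list DEPTOR stayed at least 2-fold lower and GRB10 and WISP2 at least 2-fold higher under each of 12 alternatives, whereas CYR61, FOXO4 and NRAS were past 2-fold under 7, 8 and 10 of them. WISP2 and NRAS have 1 probe each, which alternatives of filter, probe choice and disturbed areas could only keep or drop. GRB10 has 2 probes, both detected and undisturbed, so weaker filters, disturbed areas and the median of probes could not change it.

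**Figure D5:**
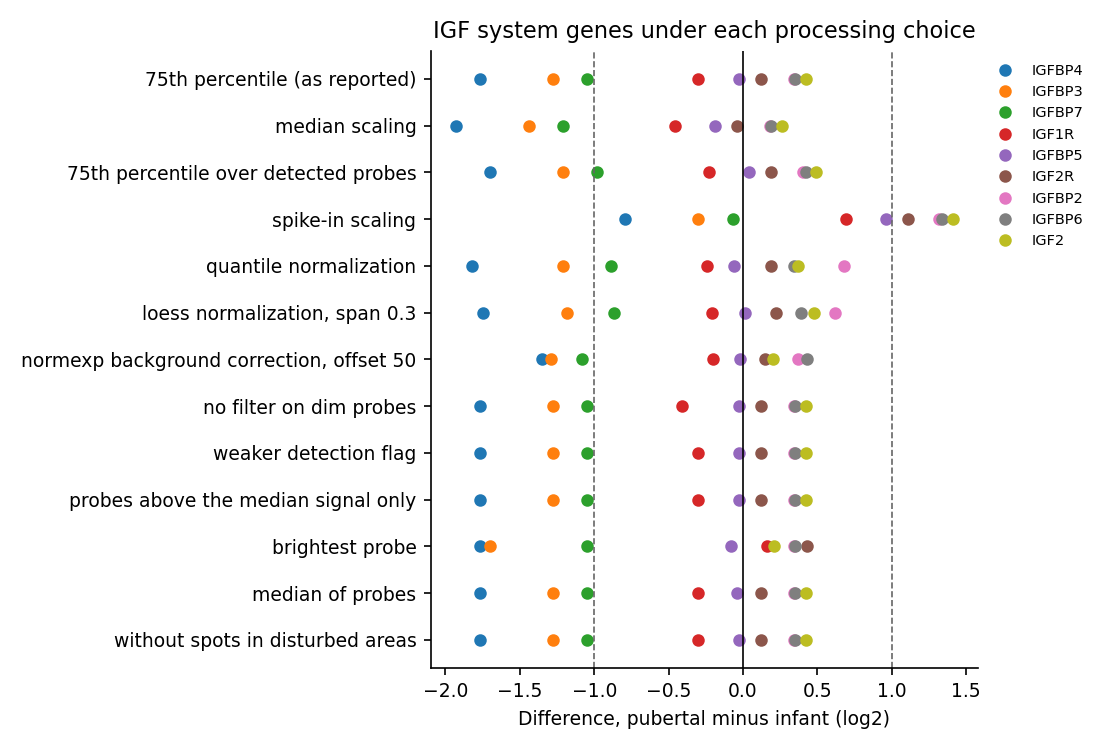
Difference (log2, pubertal minus infant) of the 9 measured IGF system genes under the reported setting and 12 alternatives, 1 row each, with 1 colour a gene and dashed lines at 2-fold. IGFBP4, IGFBP3 and IGFBP7 are the 3 leftmost points in every row, and the whole row moves to the right by 0.98 with spike-in scaling.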

How the data were processed

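Per the file headers, the authors' deposited intensity values come from Agilent Feature Extraction 10.5.1.1 on 2 one-colour arrays, 1 per group: background-subtracted and spatially detrended, with no scaling between arrays recorded. The array design names hg18. Outlier spots (96 pubertal, 91 infant) were left out, log2 was taken, and each array's 75th percentile subtracted. A probe counted as detected where the well-above-background flag was set on 50% or more of its spots, and a gene took the mean of probes detected on both arrays. Low values had been replaced by a surrogate. For a probe detected on 1 array, the fold was taken against a floor. That floor was the dim array's lowest detected level or the dim spot itself, whichever was brighter. Undetected spots can lie above the lowest detected level, so the fold is not a strict minimum. Groups came from the sample titles. No test was possible.

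The members and lists were chosen with earlier results of these data known. All members are named. From the pathway list the text names genes past 2-fold, those detected on 1 array and the largest of each role, and others chosen after their values were seen. Alternatives used limma 3.58.1 (normexp, quantile, loess); disturbed areas were neighbouring spots with like large differences (0.825% of gene spots). The functions were tested on simulated data.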

Additional observations from a re-analysis of the deposited data

How the results depend on the processing

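No paired analysis was possible because each group had 1 array. With 12 alternatives of scaling, background correction, filter and probe choice, IGFBP3 and IGFBP4 were at least 2-fold lower under 11 and IGFBP7 under 8, and none turned positive. IGFBP4 and IGFBP7 have 1 probe each. Alternatives of filter, probe choice and disturbed areas could therefore only keep or drop them, and returned the same -1.77 and -1.05. Both IGFBP3 probes were detected and undisturbed, and a median of 2 probes is their mean. Weaker filters, disturbed areas and the median of probes could therefore only return -1.28 for IGFBP3. Among the other alternatives, IGFBP7 passed 2-fold only with median scaling (-1.21) and normexp correction (-1.08). It was at -0.98 with the percentile over detected probes, -0.89 with quantile and -0.87 with loess normalization, and -0.07 with spike-in scaling. IGFBP4 was at -1.35 with normexp correction. IGF1R turned positive with the brightest probe (0.16) and with spike-in scaling (0.69), IGF2R turned negative with median scaling (-0.04), and IGFBP5 was positive under 3 of 12.

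With spike-in scaling 4 of 9 members passed 2-fold on the higher and 0 on the lower side, with a member median of 0.96. The pathway list then had a median of 0.79, with 27 of 64 genes higher and 1 lower. Of all 14243 genes, 6372 were then higher and 128 lower. A 4-fold threshold left 0 members lower, and 0 pathway genes higher and 1 lower. A 1.5-fold threshold gave 9 pathway genes higher and 14 lower. The shares of all genes past 4-fold and 1.5-fold are not given here. Pathway genes at least 2-fold lower numbered 8 with median scaling, beside 1305 of all 14243 genes, and 2 with normexp correction, beside 568. Those higher numbered 4 with no filter on dim probes, beside 2081 of 21495 genes. They also numbered 4 with a weaker detection flag, beside 1710 of 17022 genes. Median scaling moved all genes by -0.16, and of all genes past 2-fold 37.6% were then higher in place of 53.7%; the share was 98.0% with spike-in scaling. No member probe lay in a disturbed area, so leaving those areas out could move no member.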
